A study of Mus musculus with 18 samples.

Results

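The comparison is the effect of losing NADPH-cytochrome P450 reductase in the liver on gene expression, averaged over 3 diets that differ in their source of fat. All 18 arrays of the study, 18 of 18, entered a single fit of 6 group means (genotype by diet, as the sample titles give them), and the effect is the mean of the 3 knockout groups minus the mean of the 3 control groups, with every diet given the same weight. Controls were Alb-Cre-/-/POR-lox+/+ and knockouts, which the labels name LivPORKO, were Alb-Cre+/-/POR-lox+/+, so both genotypes carry the floxed reductase alleles and only the knockouts carry the Cre transgene. Cre is driven by the albumin promoter, which is active in hepatocytes, and the other cells of the liver keep the reductase gene. All mice were males of 12 weeks that had been on the lard, canola or fish/fungal diet from the age of 4 weeks, for 8 weeks, and had been fasted for 4 h. Each array carried RNA pooled from 3 mice, with 3 pools and 9 mice in each of the 6 groups, so that 9 knockout pools were compared with 9 control pools. The pool is the replicate, and its spread is narrower than that of single mice.

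The reductase sits in the membrane of the endoplasmic reticulum and passes electrons from NADPH to every microsomal P450, and also to haem oxygenase and to squalene monooxygenase. In hepatocytes this one enzyme therefore stands behind drug clearance, bile acid synthesis, sterol synthesis and the turnover of retinoids and fatty acids. Livers without it are known for low P450 activity, fat accumulation and strong induction of drug-metabolising genes. The question here was which other functions of the liver moved with it, over the whole array and whatever the diet.

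The deposited values are log2 signals, and array medians lay between 5.23 and 5.29. A gene was tested when it lay above the array median in at least 3 arrays, which left 12578 of 18193 named genes. Arrays of the same group correlated at 0.993 to 0.997. Por itself was not analysed here, and the genotypes rest on the labels alone. The tissue label was checked on 13 tested genes of hepatocyte identity, whose mean log2 signal was 13.10 to 13.43 in control pools and 13.13 to 13.30 in knockout pools. Albumin (Alb) differed by -0.01 ± 0.02 (SE) and apolipoprotein A-I (Apoa1) by -0.05 ± 0.02, and limma called 0 of the 13, with 0 at an unadjusted p under 0.05.

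One knockout library stood apart. Across the 15 genes with the smallest p-values, knockout canola pool 3 showed a median of 52.3% of the averaged change over the controls of its diet, with single genes from 20.4% to 92.7%, whereas the medians of the other knockout pools ran from 95.2% to 110%. Of the 95 lower genes, 49 lay inside the range of the canola controls in that pool, compared with 4 to 17 in the other knockout pools. Among the 480 higher genes the count inside the control range was 163 in that pool, 133 in knockout fish/fungal pool 3 and 25 to 74 in the others. Leaving out knockout canola pool 3 gave 504 higher and 136 lower genes, of which 521 were also called with it. Of 259 called genes chosen by the naming rule, 243 stayed past the threshold without it, and their changes came to between 0.884 and 1.24 times the value with all pools. The cause was not tested, and the genotype of this pool could not be checked on Por here, a limit on every canola and averaged value that includes it.

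In the averaged comparison 575 genes (4.57% of those tested) passed an adjusted p of 0.05 in limma, with 480 higher (3.82%) and 95 lower (0.755%) in the knockout. Higher genes made up 83.5% of the calls, and 71.05% when quantile normalization was repeated. Most changes were small: 401 of the 480 higher genes and 79 of the 95 lower genes changed by less than 1.5-fold. The median change was 0.37 among the higher genes and -0.34 among the lower ones on the log2 scale, and -0.00 over all genes tested. A change of at least 2-fold was reached by 32 called genes (0.254% of those tested), 27 higher and 5 lower. Within every diet the pools of the genotypes lay apart in the same direction for 138 genes (1.1%), 132 of them called. For 43 genes (0.342% of all tested) the 9 knockout pools and the 9 control pools did not overlap, 39 of them higher and 4 lower. Without knockout canola pool 2, the array whose removal cost most calls, 371 genes passed.

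Of the 575 called genes, 302 (52.5%) belonged to none of the 86 lists of pathways and cell types that were read. Of all tested genes 77.9% belonged to none. The lists were chosen with earlier results of these data known, so this contrast is a description only. In 10 of the 86 lists no member was called. Lists of detoxifying enzymes, phagocyte and lysosomal genes, the early secretory pathway, interferon-stimulated genes, annexins and the cytoskeleton held more higher genes than the 3.82% over all genes. Lists of the respiratory chain, of ribosomal proteins, of splicing and of tRNA charging held none. Of all lists, that of male-biased genes had the most members called lower, 7 of 29 (24.1%, against 0.755% over all genes). Of 23 female-biased genes tested 7 were called higher (30.4%, against 3.82% over all genes) and none lower. The 7 were Cyp2b10, Sult1e1, Lpl, Cd36, Gstt3, Atp6v0d2 and Cyp3a44, which also count in lists of drug, lipid or lysosomal genes. Another 10 female-biased genes were too dim to be tested.

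**Figure D1:**
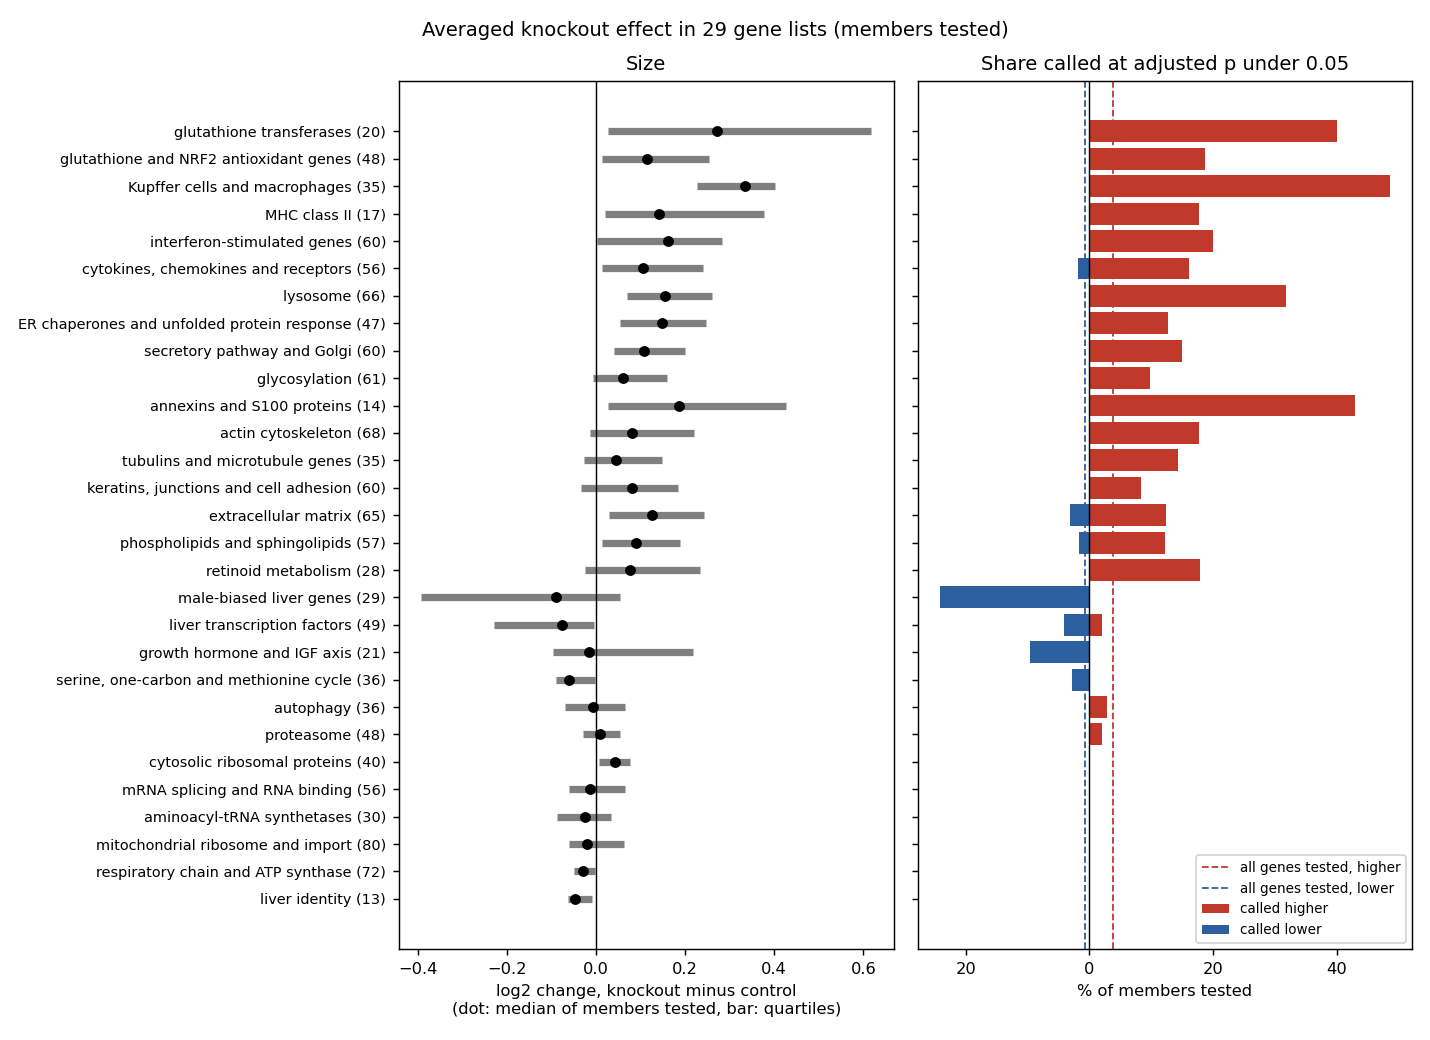
Averaged knockout effect in 29 gene lists, with the number of members tested in brackets. Left: median (dot) and quartiles (bar) of the log2 change, knockout minus control. Right: percentage of members called higher (red, to the right) or lower (blue, to the left) at an adjusted p under 0.05, with dashed lines at the shares over all genes tested, 3.82% and 0.755%. Among the 29 lists shown, which were picked from the 86, macrophage markers, annexins, glutathione transferases and lysosomal genes reach the highest shares. The mitochondrial and ribosomal lists at the foot hold none. Lists not shown with a higher share than lysosomal genes are flavin monooxygenases (2 of 4), glucuronosyltransferases (5 of 14), P450 families 1 to 3 (12 of 34) and adipocytes (2 of 6).

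Among the 25 largest rises were several genes with no known place in P450 metabolism. Levels below are log2 signals given as the lowest, median and highest of 9 pools. Robo1, a receptor for Slit guidance cues, read 5.22, 5.52 and 6.76 in controls and 5.87, 7.38 and 7.94 in knockouts. Its change was 1.41 ± 0.26 (SE; 2.65-fold, adjusted p = 0.0040), although the ranges overlapped and both other probe sets of the gene gave -0.01 and 0.02. Ubd, which encodes the ubiquitin-like modifier FAT10, read 4.78, 5.00 and 5.77 in controls and 5.90, 6.01 and 7.21 in knockouts, without overlap (1.27 ± 0.19, adjusted p = 0.00079). The mean control signal lay below the array medians on lard (4.99) and fish/fungal oil (4.88), where such signals are compressed, and above them on canola (5.51). Tnfrsf19, a receptor of the tumour necrosis factor family, also separated the genotypes, with 5.95, 6.42 and 6.74 against 6.95, 7.54 and 8.38 (1.16 ± 0.17, adjusted p = 0.00079).

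The drug exporter gene Abcb1a rose by 1.23 ± 0.15 (adjusted p = 0.00019), the intracellular protease inhibitor gene Serpinb6b by 1.07 ± 0.14 (adjusted p = 3.0e-04) and the unnamed transcript 9130409I23Rik by 1.08 ± 0.21 (adjusted p = 0.0061). Cbr3, a carbonyl reductase, read 4.94, 5.28 and 5.70 in controls and 5.31, 6.23 and 8.31 in knockouts. Its change of 1.23 ± 0.33 (adjusted p = 0.040) fell short when any of 13 arrays was left out, with an adjusted p of up to 0.089 without knockout canola pool 1. Rragd, one of the Rag GTPases that tie amino acid supply to mTORC1 at the lysosome, was among the 15 smallest p-values. It read 5.41, 5.60 and 5.82 in controls and 6.19, 6.52 and 6.97 in knockouts (0.94 ± 0.09, adjusted p = 1.1e-05), while its other 2 probe sets gave -0.05 and 0.04.

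**Figure D2:**
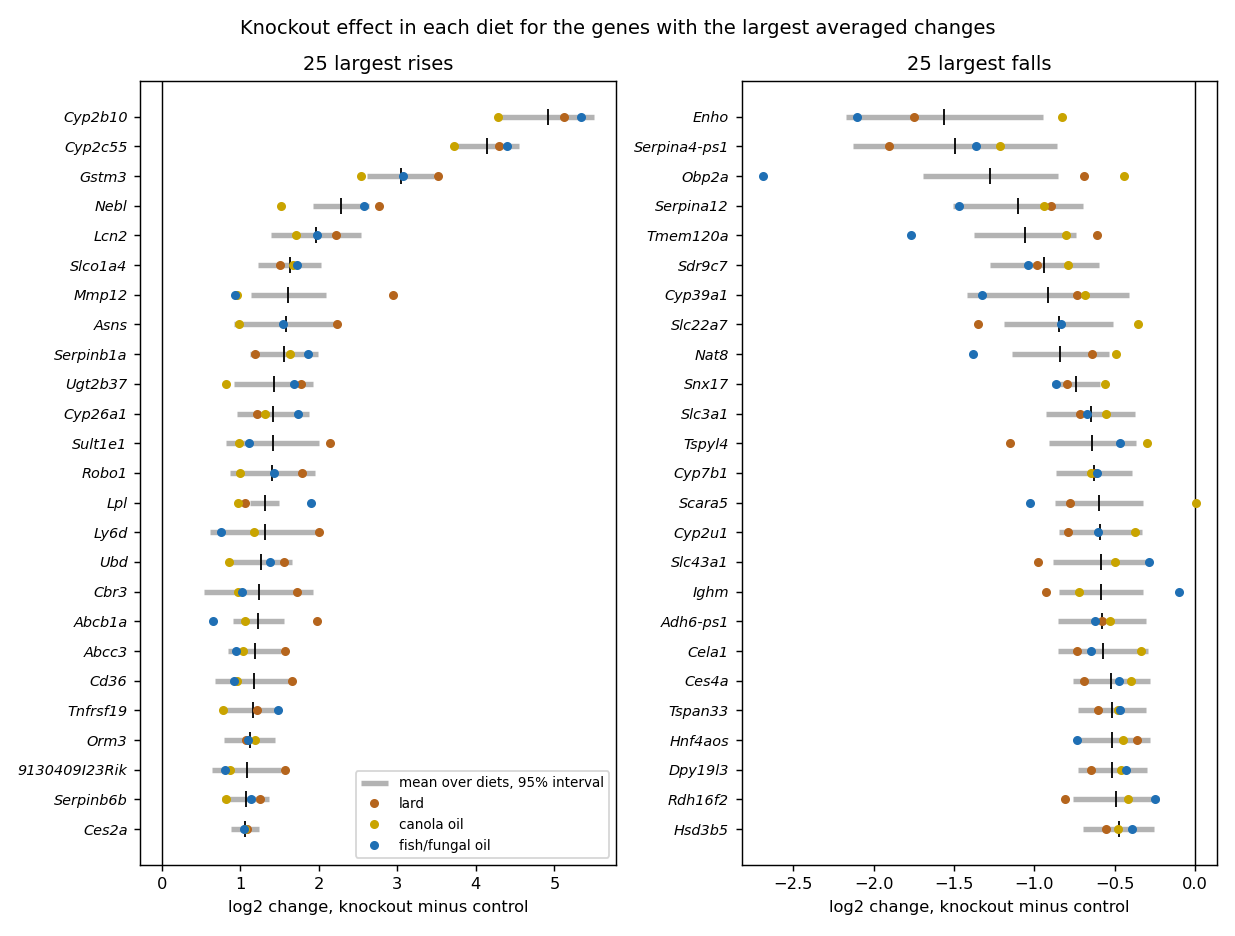
Knockout effect within each diet (coloured dots, log2 change, 3 pools per group) for the 25 largest rises and the 25 largest falls among called genes. Black ticks mark the mean over the 3 diets and grey bars its 95% confidence interval. Cyp2b10 leads the rises at 4.91 and Enho the falls at -1.56, and every dot lies on the side of its mean except that of Scara5 on canola oil, at 0.00.

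Falls were fewer, and several of the largest were in transporters and oxidoreductases of the hepatocyte. Sdr9c7, a short-chain dehydrogenase, read 7.87, 8.43 and 8.86 in controls and 7.04, 7.31 and 8.49 in knockouts, a fall of 0.94 ± 0.16 (adjusted p = 0.0023), and its second probe set gave -1.05. The overlap between the genotypes came from knockout canola pool 3, which at 8.49 was the highest knockout value. Snx17, a sorting nexin that returns receptors from endosomes, read 9.43, 9.63 and 9.88 in controls against 8.74, 8.87 and 9.29 in knockouts, without overlap (-0.74 ± 0.07, adjusted p = 1.1e-05). Slc22a7, the basolateral organic anion transporter OAT2, changed by -0.85 ± 0.16 (adjusted p = 0.0054), and Nat8, an acetyltransferase of the mercapturate route, by -0.84 ± 0.14 (adjusted p = 0.0023). Of 30 amino acid transporters 2 fell (6.67%, against 0.755% over all genes) and 2 rose (6.67%, against 3.82%), at a median of 0.01. The falls were in Slc3a1, the partner of the cystine transporter (-0.65 ± 0.13, adjusted p = 0.0077), and Slc43a1, a carrier of large neutral amino acids (-0.59 ± 0.14, adjusted p = 0.022), and the smaller rises in Slc7a8 (0.28 ± 0.06, adjusted p = 0.015) and Slc6a13 (0.27 ± 0.05, adjusted p = 0.0051). Slc43a1 was not past the threshold without knockout canola pool 2 (adjusted p = 0.054).

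Enho, which encodes the secreted peptide adropin, had the largest fall of all, from 7.03, 8.25 and 10.13 in controls to 5.95, 6.57 and 8.18 in knockouts (-1.56 ± 0.29, adjusted p = 0.0048). The ranges overlapped widely, and its other probe sets gave -1.20 to -0.04. Further falls among the 25 were in the pseudogenes Serpina4-ps1 (-1.50 ± 0.30) and Adh6-ps1 (-0.58 ± 0.13), in Tspyl4 (-0.64 ± 0.13), in the elastase gene Cela1 (-0.57 ± 0.13), in the tetraspanin gene Tspan33 (-0.52 ± 0.10) and in the mannosyltransferase gene Dpy19l3 (-0.51 ± 0.10). Tspyl4 had a second probe set at 0.00. Without probe sets prone to cross-hybridization Tspan33 gave -0.22 (adjusted p = 0.12). The retinol dehydrogenase gene Rdh16f2 changed by -0.49 ± 0.13 (adjusted p = 0.033, and up to 0.078 without any of 10 arrays, the highest being without knockout canola pool 2).

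Among detoxifying enzymes that work downstream of the P450s, or without them, the families differed. Of 20 glutathione transferases tested, which couple electrophiles to glutathione, 8 rose (40%, against 3.82% over all genes) and none fell (median 0.27). Gstm1 read 12.59, 12.94 and 13.16 in controls and 13.20, 13.58 and 13.77 in knockouts, without overlap (0.62 ± 0.07, adjusted p = 0.00012). Gstm4 separated the genotypes as well, at 8.62, 8.87 and 9.14 against 9.16, 9.32 and 10.24 (0.57 ± 0.12, adjusted p = 0.013). Gstm3 had the largest change of the list, 3.04 (adjusted p = 9.1e-08), at 9.12 to 10.49 in controls and 11.64 to 13.61 in knockouts. Gstm2 (1.03 ± 0.13), Gstt3 (0.89 ± 0.20), Gsta4 (0.62 ± 0.12) and Gstm5 (0.29 ± 0.07) rose with overlapping ranges. Gsta2 rose by 0.99 (adjusted p = 0.0041), also with overlap. Members of the mu class share sequence, and signal from one member may enter the probe sets of another.

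Of 48 genes of glutathione supply and the NRF2 antioxidant programme, 9 rose (18.75%, against 3.82% over all genes) and none fell (median 0.12). The count was 6 after repeated quantile normalization and ran down to 5, without control lard pool 2 or any of 7 other arrays. They include Gpx7, a peroxidase of the endoplasmic reticulum (5.37, 5.51 and 6.03 in controls, 5.72, 6.44 and 6.79 in knockouts; 0.82 ± 0.11, adjusted p = 3.0e-04), and Gpx4, which reduces lipid peroxides (0.26 ± 0.06, adjusted p = 0.018, and 0.060 after centring). Ugdh, which makes UDP-glucuronate, was at 0.43 ± 0.12 (adjusted p = 0.048), and it fell short when any of 13 arrays was left out (at most 0.10, without knockout canola pool 1) and when quantile normalization was repeated (adjusted p = 0.057). The list's mean level was 9.79 to 9.89 in control pools and 9.90 to 10.14 in knockout pools, so that the genotypes did not overlap. Both flavin monooxygenases with the highest changes passed, Fmo5 (0.37 ± 0.10, adjusted p = 0.039) and Fmo1 (0.30 ± 0.08, adjusted p = 0.044), out of 4 tested. These oxygenases take electrons from NADPH directly. Each of their calls ended without any of 12 arrays, with adjusted p up to 0.087 for Fmo5 (without knockout canola pool 1; 0.17 without probe sets prone to cross-hybridization) and 0.10 for Fmo1 (without knockout canola pool 2), and that of Fmo1 also ended when quantile normalization was repeated (adjusted p = 0.055).

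Esterases moved both ways. Of 15 carboxylesterases, deacetylases and paraoxonases tested, Ces2a and Pon3 rose and Ces4a, Ces1f and Aadac fell. The rises were 13.3% of the list, against 3.82% over all genes, and the falls 20%, against 0.755%. Ces2a was nearly the same on every diet, at 1.08, 1.05 and 1.04 on lard, canola and fish/fungal oil, and read 11.70, 12.08 and 12.25 in controls against 12.58, 13.09 and 13.24 in knockouts. Ces4a changed by -0.52 ± 0.11 (adjusted p = 0.013) and Ces1f by -0.24 ± 0.05 (adjusted p = 0.011). Aadac, a deacetylase of the endoplasmic reticulum, changed by -0.14 ± 0.04 (adjusted p = 0.030), which was lost without any of 7 arrays (up to 0.071, without knockout canola pool 2). Among 38 aldehyde and aldo-keto enzymes 3 rose (7.9%, against 3.82% over all genes), at a median of -0.01 for the list. Of 25 sulfo- and methyltransferases 2 rose (8%, against 3.82%) and 1, Nat8, fell (4%, against 0.755% over all genes).

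Lysosomal genes rose as a group, and almost all in one direction. Of 66 genes tested, 21 were called higher (31.8%, against 3.82% over all genes), none was called lower, and 61 of the 66 changes were above 0, with a median of 0.15. Acp2, the lysosomal acid phosphatase, led the list and separated the genotypes, at 7.99, 8.29 and 8.45 in controls and 8.77, 8.84 and 9.27 in knockouts (0.62 ± 0.07, 1.54-fold, adjusted p = 3.7e-05). Hexa, which degrades gangliosides, read 10.18, 10.25 and 10.42 against 10.38, 10.59 and 10.86 (0.35 ± 0.05, adjusted p = 0.0011). Psap, the precursor of the sphingolipid activators, read 11.32, 11.61 and 11.79 against 11.65, 11.92 and 12.14 (0.34 ± 0.06, adjusted p = 0.0042). In both, a single step separates most pools of the genotypes, and only the edges of the ranges overlap.

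By role, 15 of 41 hydrolases and activators rose (median 0.18, 38 of 41 above 0), and so did 3 of 13 subunits of the proton pump that acidifies the lysosome (median 0.08, 12 of 13 above 0). The pump subunit gene Atp6v0d2 rose by 0.53 ± 0.10 (adjusted p = 0.0069). Of 36 autophagy genes, by contrast, only Sqstm1, the cargo receptor p62, passed (0.19 ± 0.04, adjusted p = 0.014). That is 2.78%, against 3.82% over all genes, and the median of that list was -0.01. Several lysosomal genes are abundant in macrophages, and markers of that cell type rose too. With the 4 genes that are also on the macrophage list set aside, 17 of 62 lysosomal genes were higher (median 0.14). The count ran from 14 (without control lard pool 3) to 21 when 1 array was left out, and was 20 without knockout canola pool 3. Laptm5, a lysosomal membrane protein of blood cells, was called at 0.47 ± 0.12, fell short when any of 13 arrays was left out (at most 0.077, without knockout canola pool 2) and gave -0.07 without probe sets prone to cross-hybridization. How far the macrophage signal contributes was not tested.

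The letters TCACGTGA, the core of the element through which TFEB-type factors act on lysosomal genes, occur on either strand in 2.08% of 10125 promoter windows of tested genes (300 bases each, from 250 before the start to 50 after it). They occur in 8 of 55 lysosomal genes with a window (14.6%), in 2 of 17 called and in 6 of 38 not called. The stretch of Ctsd, the cathepsin D gene, is shown because it holds that element in a lysosomal gene that was called higher; it was named after its value was seen (RefSeq, GRCm38.p6, chr7:142387893-142387952, minus strand, element in capitals).
Ctsd: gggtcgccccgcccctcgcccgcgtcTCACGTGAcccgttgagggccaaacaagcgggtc
The element was in 11.8% of the lysosomal genes that were called and in 15.8% of those that were not. These rest on few genes, and the difference was not tested.

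**Figure D3:**
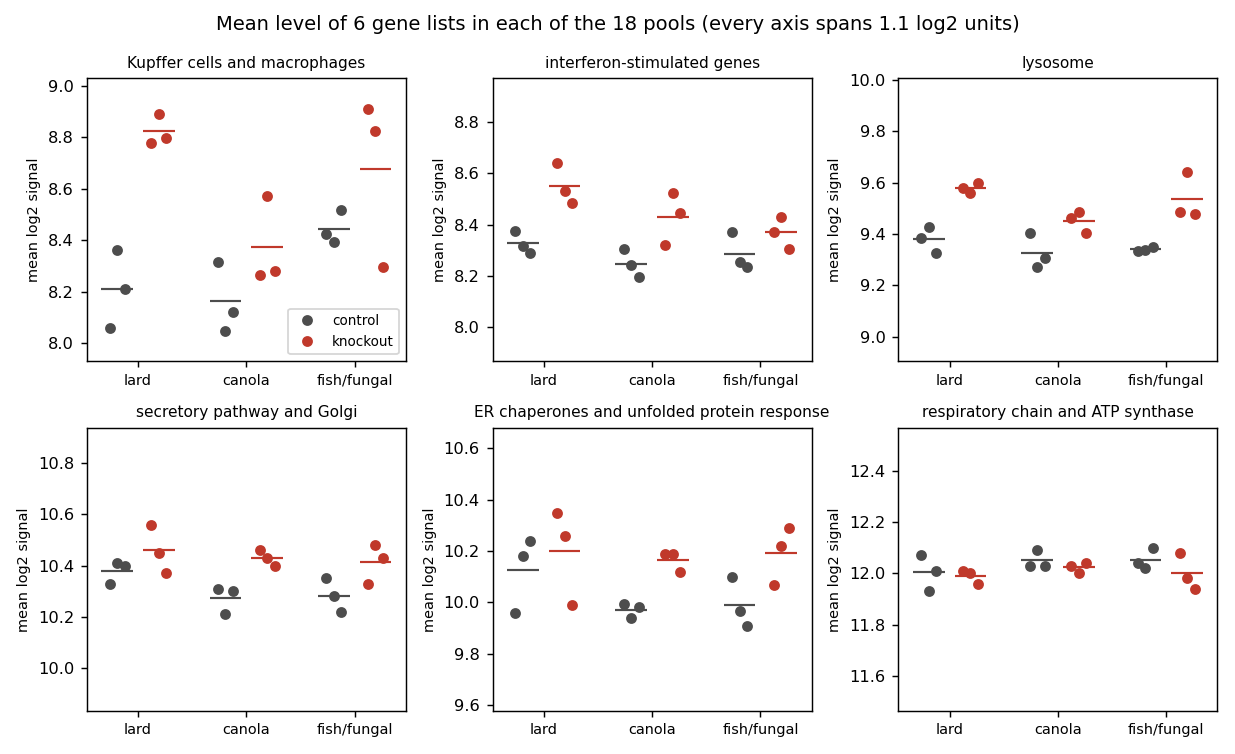
Mean log2 signal over the tested members of 6 gene lists in each of the 18 pools (dots; 3 pools per genotype and diet, line at their mean), with every axis spanning the same range. On lard every knockout pool lies above the controls for macrophage markers (8.78 to 8.89 against 8.06 to 8.36), on lard and fish/fungal oil the same holds for lysosomal genes, and for the respiratory chain the genotypes overlap on each diet.

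The early secretory pathway rose by small steps, with a list median of 0.07 on lard, 0.16 on canola and 0.12 on fish/fungal oil. Of 60 genes of translocation into the endoplasmic reticulum, glycan transfer and vesicle traffic to the Golgi, 9 were called higher and none lower, and 54 of 60 changes were above 0 (median 0.11). Stt3b, a catalytic subunit of oligosaccharyltransferase, read 10.83, 10.98 and 11.15 in controls and 11.13, 11.33 and 11.38 in knockouts, and its change was 0.31, 0.32 and 0.37 on lard, canola and fish/fungal oil (0.33 ± 0.05, adjusted p = 0.00088). Tmed3, a cargo receptor of vesicles between the endoplasmic reticulum and the Golgi, read 8.26, 8.46 and 8.94 against 8.90, 9.20 and 9.39 (0.59 ± 0.09, adjusted p = 0.00088), with its second probe set at 0.06. Spcs2, a subunit of signal peptidase, rose by 0.30 ± 0.07 (adjusted p = 0.023, and 0.051 without knockout lard pool 1). Tmed9, the oligosaccharyltransferase subunit genes Rpn2 and Ost4, the signal recognition receptor gene Srpr and the vesicle fusion gene Sec22b were called at 0.21 to 0.28, and each lost its call without several single arrays (3 to 12 of 18, with adjusted p up to 0.10). The count of higher genes ran from 2 (without knockout lard pool 1) to 11 with 1 array left out, and was 4 after repeated quantile normalization, where the median was 0.07. Without knockout canola pool 3 the median was 0.11.

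Chaperones and sensors of the same compartment gave a like picture. Of 47 genes of protein folding in the endoplasmic reticulum 6 rose (12.8%, against 3.82% over all genes) and none fell. Of the 47 changes 42 were above 0 (median 0.15). By diet the median was 0.05 on lard, 0.17 on canola and 0.18 on fish/fungal oil. Eif2ak3, the sensor kinase PERK, rose by 0.46 ± 0.06 (adjusted p = 0.00052) from 6.90, 7.11 and 7.26 to 7.16, 7.48 and 7.97, and Selenos, a selenoprotein of the degradation complex, by 0.42 ± 0.07 (adjusted p = 0.0028). Hspa13, Sec61a1 and Uggt1, the glycoprotein folding sensor, were at 0.52, 0.30 and 0.36, and lost their calls without any of 10, 10 and 14 arrays (adjusted p up to 0.076, 0.070 and 0.097). The count ran from 2, without any of 5 arrays including control lard pool 1, to 8, without knockout lard pool 3. Of 61 glycosylation genes 6 rose (9.84%, against 3.82% over all genes) and none fell (median 0.06). Nagk, which salvages N-acetylglucosamine, read 8.10, 8.41 and 8.54 in controls and 8.60, 8.80 and 8.88 in knockouts, without overlap (0.38 ± 0.07, adjusted p = 0.0026). Fut8, the core fucosyltransferase, rose by 0.48 ± 0.08 (adjusted p = 0.0013), but its other probe sets gave -0.08 and -0.03.

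In the list of Kupffer cell and macrophage markers 17 of 35 tested rose (48.6%, against 3.82% over all genes) and none fell. Of the 35 changes 32 were above 0 (median 0.34). The called genes did not include Adgre1, Clec4f, Vsig4, Cd5l, Marco or Timd4, which are also on that list. In bulk liver RNA more cells of a type and more RNA per cell cannot be told apart. The list's mean level was 8.05, 8.32 and 8.52 in control pools and 8.26, 8.78 and 8.91 in knockout pools, with overlap from knockout canola pools 1 and 3 and knockout fish/fungal pool 3. Its median change was 0.54 on lard, 0.16 on canola and 0.23 on fish/fungal oil. Lgals3, galectin-3, read 7.70, 7.90 and 8.29 in controls and 7.73, 8.95 and 9.20 in knockouts (0.78 ± 0.16, adjusted p = 0.0099). Clec7a, the fungal glucan receptor dectin-1, read 7.97, 8.37 and 9.31 against 8.57, 9.17 and 9.90 (0.74 ± 0.14, adjusted p = 0.0056). Cd14, the endotoxin co-receptor, rose by 0.54 ± 0.11 and Lyz2, lysozyme, by 0.54 ± 0.12. The lowest count over single arrays left out was 12, without knockout canola pool 2, and the highest was 24, without knockout fish/fungal pool 3. Of 22 endothelial markers limma called 0, with 3 at an unadjusted p under 0.05, and of 5 neutrophil markers it called 0, with 0 at an unadjusted p under 0.05 (S100a9 at 0.03 ± 0.22 and S100a8 at -0.09 ± 0.28).

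Some genes of antigen presentation and of the interferon response were called higher as well. Of 21 genes of MHC class I and antigen processing 1 was called higher (4.76%), near the 3.82% over all genes. It was H2-D1, at 0.16 ± 0.04 (adjusted p = 0.038). Its call ended without any of 10 arrays (up to 0.092, without knockout canola pool 2) and after repeated quantile normalization (adjusted p = 0.068). Of 17 tested genes of MHC class II, 3 rose, or 2 of 16 with the macrophage marker set aside: Cd74, the invariant chain (8.37, 8.89 and 9.14 in controls, 8.86, 9.47 and 9.62 in knockouts; 0.50 ± 0.12, adjusted p = 0.025), H2-Eb1 (0.48 ± 0.12, adjusted p = 0.028) and Ctss, which trims the invariant chain (0.38 ± 0.09, adjusted p = 0.018). The call of Cd74 ended without any of 5 arrays (up to 0.063, without knockout canola pool 2) and that of H2-Eb1 without any of 6 (up to 0.057, without knockout lard pool 2). The class II rises were 17.65% of that list, against 3.82% over all genes. Their count ran from 1, without any of 3 arrays including knockout canola pool 2, to 7, without knockout fish/fungal pool 3. Of 60 interferon-stimulated genes 12 rose (20.0%), none fell and 45 of 60 changes were above 0 (median 0.16; 0.21, 0.19 and 0.08 on lard, canola and fish/fungal oil). Usp18, the protease that restrains interferon signalling, was the clearest at 8.41, 8.61 and 8.98 in controls and 8.91, 9.26 and 9.57 in knockouts (0.62 ± 0.08, 1.54-fold, adjusted p = 0.00022), and only the edges of the ranges met. Oasl2 rose by 0.51 ± 0.08 (adjusted p = 0.0014), Lgals3bp by 0.47 ± 0.08 (0.0027) and Gbp3 by 0.40 ± 0.07 (0.0016). Gbp2, another guanylate-binding GTPase, was at 0.50 ± 0.14 (adjusted p = 0.049), a call that ended without any of 15 arrays (up to 0.10, without knockout fish/fungal pool 2) and under 6 other settings (up to 0.064 with repeated quantile normalization and 0.069 with array weights). Ifi27l2b, which is on none of the lists and was among the 15 smallest p-values, read 7.26, 7.54 and 7.66 in controls and 7.80, 8.18 and 8.45 in knockouts, without overlap (0.71 ± 0.08, adjusted p = 3.7e-05). The list's count ran from 7 (without knockout canola pool 2) to 14, and was 11 without knockout canola pool 3. Macrophages also express these genes, and their part in the result was not tested.

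The element of interferon-stimulated genes, searched on both strands, was found in 3.61% of the promoter windows of all tested genes and in 21 of 45 interferon-stimulated genes with a window (46.7%). Only 2 of the 9 called members with a window held it, both being guanylate-binding genes, compared with 19 of 36 members that were not called. Both are shown because they are the called members with the element, which lies on the reverse strand and is marked in capitals (RefSeq, GRCm38.p6, plus strand; Gbp2 at chr3:142620579-142620638, Gbp3 at chr3:142559980-142560039).
Gbp2: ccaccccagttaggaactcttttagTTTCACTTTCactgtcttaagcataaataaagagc
Gbp3: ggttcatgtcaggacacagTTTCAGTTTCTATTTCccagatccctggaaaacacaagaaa
The capitals of Gbp3 span overlapping matches of the same letters.

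Of 56 cytokines, chemokines and their receptors tested, 9 rose (16.1%, against 3.82% over all genes) and 1 fell (1.79%, against 0.755%), at a median of 0.11. Cxcl10, the interferon-induced chemokine, read 6.48, 6.71 and 7.18 in controls and 6.82, 7.40 and 8.03 in knockouts (0.66 ± 0.13, adjusted p = 0.0064), with 1.13 on lard and 0.36 on fish/fungal oil. Tgfbr2, the type II receptor of TGF-beta, read 8.43, 8.85 and 9.07 against 8.99, 9.48 and 9.82 (0.64 ± 0.11, adjusted p = 0.0026), although 1 of its other 2 probe sets gave -0.09. The death receptor gene Fas rose by 0.39 ± 0.08 (adjusted p = 0.0074). Tnfaip3, the NF-kappaB inhibitor A20, was at 0.38 ± 0.09 (adjusted p = 0.023, and up to 0.052 without any of 2 arrays, the highest being without knockout fish/fungal pool 2). These genes span sender and receiver roles, and in none of them was the difference between diets past the test.

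**Figure D4:**
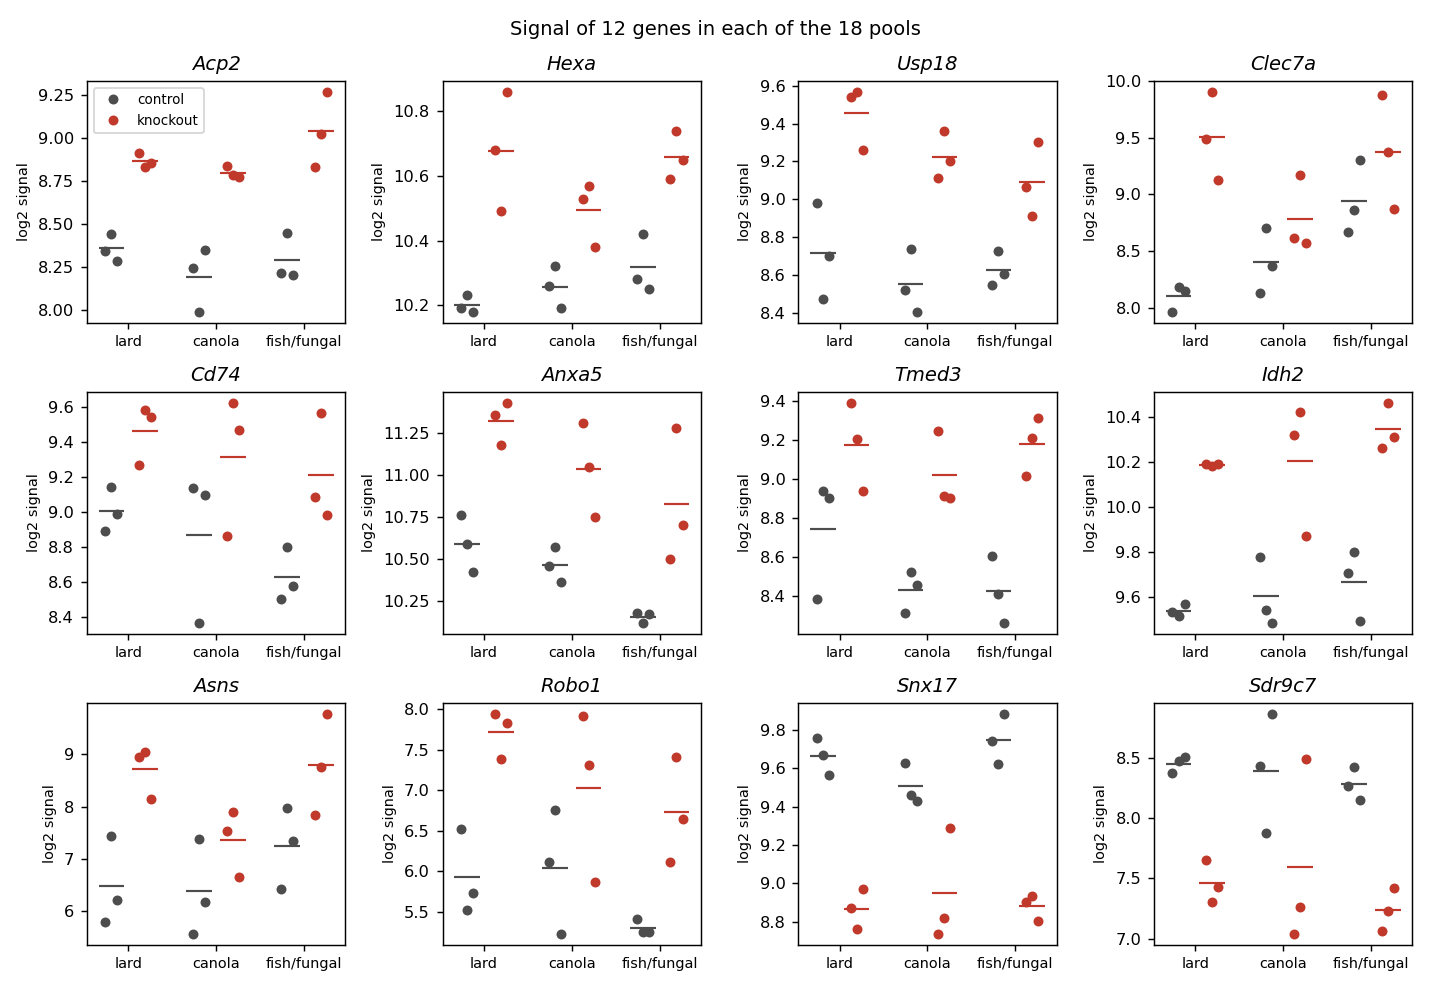
Log2 signal of 12 genes in each of the 18 pools (dots; grey control, red knockout; line at the mean of 3 pools). Axes differ between genes and do not start at 0. Acp2, Idh2 and Snx17 separate the 9 knockout from the 9 control pools, and knockout canola pool 3 is the knockout pool nearest the controls for Robo1, Snx17 and Sdr9c7.

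Genes of the cell's frame and surface rose in several families. Of 14 tested annexins and S100 proteins, 6 rose (42.9%, against 3.82% over all genes) and none fell (median 0.19). Anxa5 read 10.12, 10.42 and 10.76 in controls and 10.50, 11.18 and 11.43 in knockouts (0.66 ± 0.09, adjusted p = 0.00062), and changed by 0.73, 0.57 and 0.67 on lard, canola and fish/fungal oil. Anxa2 rose by 0.69 ± 0.12 (adjusted p = 0.0021; other probe sets 0.01 and 0.27), Anxa3 by 0.43 ± 0.07 (0.0011) and S100a6 by 0.47 ± 0.09 (0.0056). S100a10, the partner of annexin A2, was at 0.42 ± 0.11 (adjusted p = 0.046, and up to 0.10 without any of 12 arrays, the highest being without knockout canola pool 1).

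Of 68 actin cytoskeleton genes 12 rose (17.6%) and none fell (median 0.08). Nebl, a nebulin-type actin-binding protein, stood far above the others at 3.69, 4.08 and 4.22 in controls and 4.45, 6.58 and 7.06 in knockouts (2.29 ± 0.17), its signal in controls was below the array medians, and its other probe sets gave -0.04 and 0.17. Knockout canola pool 3 gave the 4.45. Actg1, a cytoplasmic actin, rose by 0.44 ± 0.07 (adjusted p = 0.0023), Myh10, a non-muscle myosin, by 0.38 ± 0.09 (adjusted p = 0.016) and Tpm1, a tropomyosin, by 0.37 ± 0.08 (adjusted p = 0.014). A second probe set of Myh10 gave 0.00, and Tpm1 did not pass with the mean of its probe sets (adjusted p = 0.15). Capg (0.53 ± 0.12) and Coro1a (0.48 ± 0.11) are actin regulators abundant in blood-derived cells, and the other probe sets of Coro1a gave 0.02 and 0.32. Of 35 genes of microtubules 5 rose (14.3%, against 3.82% over all genes). They were led by the beta tubulins Tubb2a (0.88 ± 0.20), Tubb6 (0.54 ± 0.10) and Tubb4b (0.41 ± 0.08). None of these 3 passed with the mean of all probe sets (adjusted p = 0.056, 0.069 and 0.086), which left 2 of the 5 called under that rule.

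The hepatocyte keratins rose as the pair in which they assemble. Krt8 read 10.73, 10.91 and 11.20 in controls and 10.96, 11.40 and 11.63 in knockouts (0.42 ± 0.08, adjusted p = 0.0056). Krt18 read 11.17, 11.43 and 11.57 against 11.45, 11.81 and 12.22 (0.40 ± 0.08, adjusted p = 0.0062). Their changes were alike within each diet, at 0.57 and 0.48 on lard, 0.52 and 0.48 on canola, and 0.16 and 0.24 on fish/fungal oil. Icam1, an adhesion molecule that binds leukocytes, rose by 0.73 ± 0.11 (adjusted p = 0.00086), from 6.38, 6.80 and 7.17 to 7.02, 7.70 and 7.95. In all, 5 of 60 genes of keratins, junctions and adhesion rose (8.33%, against 3.82% over all genes) and none fell (median 0.08). Without knockout canola pool 3, 8 rose.

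Of 65 genes of the extracellular matrix 8 rose (12.3%, against 3.82% over all genes) and 2 fell (3.08%, against 0.755%), at a median of 0.13. Plod1, the lysyl hydroxylase of collagen, separated the genotypes at 8.16, 8.38 and 8.49 against 8.58, 8.86 and 9.14 (0.50 ± 0.08, adjusted p = 0.0018), with its second probe set at 0.02. Mmp19 rose by 0.40 ± 0.07 (adjusted p = 0.0034) and the basement membrane chain Col4a1 by 0.55 ± 0.13 (adjusted p = 0.019). The laminin gene Lama3 (-0.46 ± 0.11, adjusted p = 0.027) and the glypican gene Gpc1 (-0.37 ± 0.06, adjusted p = 0.0021) fell, and Lama3 lost its call without any of 6 arrays (up to 0.060, without control lard pool 3). The count of higher genes ran from 6, without knockout canola pool 2, to 13, without knockout fish/fungal pool 3.

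Membrane lipid genes showed a similar shift of small size. Of 57 genes of phospholipid and sphingolipid metabolism 7 rose (12.3%, against 3.82% over all genes) and 1 fell. The median was 0.09, and 45 of 57 changes were above 0. Without control lard pool 3 or any of 5 other arrays, 4 were higher. Phospholipases were 4 of the 7: Pla2g12a, a secreted form (0.45 ± 0.09, adjusted p = 0.0063), Pla2g15, the lysosomal form (0.41 ± 0.09, adjusted p = 0.015), Pla2g6, the calcium-independent form (0.50 ± 0.13, adjusted p = 0.042), and Pla2g7, which inactivates platelet-activating factor (0.46 ± 0.12, adjusted p = 0.034). The last 2 calls ended without any of 12 arrays (up to 0.095, without knockout canola pool 2) and any of 10 (up to 0.077, without control lard pool 3). Sptlc2, a subunit of the enzyme that starts sphingolipid synthesis, read 7.80, 7.94 and 8.16 in controls and 8.10, 8.38 and 8.56 in knockouts (0.37 ± 0.06, adjusted p = 0.0016), while its other probe sets gave -0.01 and 0.08. Smpd3, a neutral sphingomyelinase, rose by 0.30 ± 0.07 (adjusted p = 0.013). The sphingosine-1-phosphate receptor gene S1pr5 was the one that fell (-0.29 ± 0.06, adjusted p = 0.0064).

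Mitochondria and the core of protein synthesis did not show a matching change. None of 72 tested subunits of the respiratory chain and ATP synthase passed, their median change was -0.03, and the largest change of any was 0.27 in size. In these 72 genes limma gave 0 calls and 6 genes with an unadjusted p under 0.05, and 54 of the 72 changes were below 0. None of 80 genes of the mitochondrial ribosome and import passed (median -0.02), nor did any of 40 cytosolic ribosomal proteins (0.04), 56 splicing genes (-0.01) or 30 tRNA synthetases (-0.03). An unadjusted p under 0.05 was reached in limma by 9, 6, 6 and 2 genes of these lists. Uqcrb, a subunit of complex III, was at -0.03 ± 0.03 and the ribosomal gene Rps29 at 0.02 ± 0.03. In the proteasome 1 of 48 genes was called higher (2.08%, against 3.82% over all genes). It was Psmd8, at 0.23 ± 0.05 (adjusted p = 0.012).

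Among genes of NADPH supply, Idh2 was an exception. Idh2, the mitochondrial NADP-dependent isocitrate dehydrogenase, read 9.49, 9.54 and 9.80 in controls and 9.87, 10.26 and 10.46 in knockouts, without overlap (0.64 ± 0.07, 1.56-fold, adjusted p = 6.6e-05). Its change was 0.64, 0.60 and 0.68 on lard, canola and fish/fungal oil, and its second probe set gave -0.05. Idh2 alone passed among 21 genes of NADPH supply (4.76%, against 3.82% called higher over all genes), and the median of that list was 0.03. Of 46 genes of the citrate cycle and mitochondrial carriers 3 rose, Idh2 among them (6.52%, median 0.01). That count was as low as 1 when single arrays were left out. Of 53 genes of nucleotide metabolism 4 rose (7.55%, against 3.82% over all genes). The count was 1 without knockout canola pool 2, and 2 after repeated quantile normalization. The largest of these rises was in Entpd5, which hydrolyses UDP in the endoplasmic reticulum and thereby serves glycoprotein folding. Entpd5 read 10.18, 10.73 and 10.79 in controls and 10.93, 11.36 and 11.57 in knockouts, without overlap (0.73 ± 0.09, 1.65-fold, adjusted p = 0.00017), and its 5 other probe sets gave -0.01 to 0.79.

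Targets of the integrated stress response did not rise as a group: 2 of 34 passed, and the median of the list was -0.00. They were Asns, asparagine synthetase, and Trib3, a pseudokinase that feeds back on the response. Asns read 5.56, 6.43 and 7.98 in controls and 6.66, 8.15 and 9.77 in knockouts, with wide overlap (1.59 ± 0.31, 3.00-fold, adjusted p = 0.0068), and its second probe set gave 1.61. Trib3 rose by 0.43 ± 0.08 (adjusted p = 0.0050). The amino acid response element, searched as TGATGNAAN on both strands, was found in 2.78% of promoter windows of all tested genes, in 11 of 31 stress response targets with a window (35.5%) and in both called ones. The stretch of Asns is shown because it has the larger change of the pair (RefSeq, GRCm38.p6, chr6:7693210-7693269, minus strand, element in capitals, 23 to 15 bases before the start).
Asns: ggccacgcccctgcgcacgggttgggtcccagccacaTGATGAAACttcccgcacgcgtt
Of the 29 targets that were not called, 9 held the element as well. In the methionine cycle and one-carbon list 1 of 36 genes was called lower (2.78%, against 0.755% over all genes) and none higher. It was Cbs, the first enzyme of transsulfuration, from 10.88, 11.20 and 11.68 in controls to 10.56, 10.92 and 11.19 in knockouts (-0.38 ± 0.07, adjusted p = 0.0056). By diet Cbs changed by -0.55, -0.10 and -0.48 on lard, canola and fish/fungal oil.

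In the growth hormone and IGF list 2 of 21 genes fell (9.52%, against 0.755% over all genes) and none rose. Igfals, the acid-labile subunit that carries circulating IGF, was at -0.33 ± 0.08 (adjusted p = 0.032), and Ghr, the growth hormone receptor, at -0.18 ± 0.05 (adjusted p = 0.037). Igfals lost its call without any of 10 arrays (up to 0.074) and Ghr without any of 11 (up to 0.077), in both cases most without knockout canola pool 1, and Ghr gave -0.08 (adjusted p = 0.43) without probe sets prone to cross-hybridization. Among 49 liver transcription factors 1 rose (2.04%) and 2 fell (4.08%), the median was -0.08, and 12 of 49 changes were above 0. Klf6, an immediate early factor, rose by 0.69 ± 0.12 (adjusted p = 0.0021), from 5.49, 5.95 and 6.09 to 6.09, 6.71 and 7.43. Per1, a component of the circadian clock, was at -0.43 ± 0.11 (adjusted p = 0.031, and up to 0.071 without any of 9 arrays, the highest being without knockout fish/fungal pool 2). Foxa3, a forkhead factor of hepatocytes, was at -0.28 ± 0.07 (adjusted p = 0.032, and up to 0.078 without any of 9 arrays, the highest being without knockout canola pool 2).

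Several genes of retinoid handling were higher. Of 28 tested genes of retinoid metabolism 5 rose (17.9%, against 3.82% over all genes) and none fell (median 0.08). Without knockout fish/fungal pool 1, 8 rose. Rarb, a retinoic acid receptor and a classic target of the acid, read 4.88, 5.21 and 5.58 in controls and 5.59, 5.73 and 6.41 in knockouts, without overlap (0.71 ± 0.12, adjusted p = 0.0018). The mean control signal of Rarb lay below the array medians on canola and fish/fungal oil (5.11 and 5.05) and above them on lard (5.40). Rarres1, named for its induction by retinoids, read 9.41, 9.86 and 10.49 against 10.23, 10.61 and 10.87 (0.71 ± 0.12, adjusted p = 0.0019). Cyp26a1, which hydroxylates retinoic acid, read 6.04, 6.26 and 6.70 against 6.59, 7.94 and 8.69 (1.42 ± 0.22, adjusted p = 0.0011). By diet these 3 genes changed by 0.65, 0.66 and 0.83 (Rarb), by 0.67, 0.50 and 0.95 (Rarres1) and by 1.21, 1.31 and 1.73 (Cyp26a1) on lard, canola and fish/fungal oil.

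In iron handling 5 of 36 genes rose and 1 fell (median 0.04), with 2 higher without control lard pool 3 or any of 4 other arrays. The fall was 2.78% of the list, against 0.755% over all genes, and the 5 rises were 13.9%, against 3.82%. Apart from Lcn2 these were small: Hjv, hemojuvelin (0.37 ± 0.09, adjusted p = 0.029), the iron importer gene Slc11a2 (0.29 ± 0.07, adjusted p = 0.023), Hfe (0.19 ± 0.05, adjusted p = 0.024) and Fth1, ferritin heavy chain (0.13 ± 0.04, adjusted p = 0.048). All 4 calls ended when single arrays were left out, 2 to 14 of the 18. Among ion channels and pumps 1 of 57 rose (1.75%, against 3.82% over all genes) and 4 fell (7.02%, against 0.755%). Slc17a2, a phosphate carrier, read 11.27, 11.44 and 11.64 in controls and 10.88, 11.11 and 11.30 in knockouts (-0.30 ± 0.06, adjusted p = 0.0059), and P2rx4, an ATP-gated channel, rose by 0.33 ± 0.05 (adjusted p = 0.00094; other probe sets 0.03 to 0.43). In Wnt and TGF-beta signalling 4 of 61 genes rose (6.56%, against 3.82% over all genes), and 2 when probe sets were averaged. Among the 4 was the Wnt receptor gene Fzd8 (0.50 ± 0.11, adjusted p = 0.016, but 0.13 when its probe sets were averaged). Another was the activin subunit gene Inhbe (0.76 ± 0.18, adjusted p = 0.024). The call of Inhbe ended without any of 3 arrays (up to 0.054, without knockout fish/fungal pool 2). Beside the deleted locus, 2 of 21 tested genes rose (9.52%, against 3.82% over all genes) and 1 fell (4.76%, against 0.755%). The median was -0.00, and none rose without any of 8 arrays. That fall, in Tmem120a, was the largest of the 21, from 8.61, 9.13 and 9.36 in controls to 6.95, 8.15 and 8.97 in knockouts (-1.06 ± 0.15, adjusted p = 0.00056), with overlapping ranges.

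The averaged effect was read against its spread over diets. The 480 higher genes had a median change of 0.43 on lard, 0.32 on canola and 0.33 on fish/fungal oil, and the 95 lower genes of -0.38, -0.30 and -0.31. Without knockout canola pool 3 the canola medians were 0.38 and -0.37. The calls rest on the average of these 3 effects, so the medians are a description. The test of whether the knockout effect depends on diet called 0 of 12578 genes (limma F test, lowest adjusted p = 0.52), and 242 genes (1.92%) had an unadjusted p under 0.05. Without control fish/fungal pool 1, or without pool 2 of that group, 1 gene passed.

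The 10 genes with the smallest interaction p are given as values. Lpl, lipoprotein lipase, changed by 1.06, 0.97 and 1.90 on lard, canola and fish/fungal oil, and Obp2a, an odorant-binding lipocalin, by -0.69, -0.44 and -2.69. Wfdc12, a small protease inhibitor, was at -0.07, 0.03 and -1.03. Sprr1a, an epithelial envelope protein, was at 1.94, 0.47 and 0.10, and Gpr137b, a lysosomal membrane protein, at 0.76, 0.18 and 0.14. Gpc1 was at -0.58, -0.69 and 0.17. The matricellular gene Ccn1 went from 0.78 on lard through 0.30 to -0.52 on fish/fungal oil. Susd1 (0.17, -0.24 and 0.41), Rlf (-0.01, 0.28 and -0.42) and Grasp (0.22, 0.02 and -0.32) complete the 10. For Lpl, Obp2a and Wfdc12 the fish/fungal value is the one that differs most from the other diets, and for Sprr1a and Gpr137b it is the lard value, with each adjusted p at 0.52 or above.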

How the data were processed

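Liver RNA of 18 pools of 3 mice was measured on Affymetrix 430 2.0 mouse arrays. The authors deposited log2 signals per probe set, which the submitters' processing notes credit to RMA; the log2 scale was read from the values, which ran from 2.41 to 14.9. The number of arrays limits the precision. RMA includes quantile normalization, which can hide a shift common to most genes. Probe sets with 1 gene symbol (34945 of 45101) were kept, 932 had several and 9160 were not listed; a gene was represented by its probe set with the highest mean. Groups came from the sample titles. One model of 6 group means was fitted with limma 3.58.1 in R 4.3.3 (empirical Bayes with an intensity trend), and p-values were adjusted by Benjamini-Hochberg over all 12578 genes, with a threshold of 0.05. P-values measure the spread between pools. The script was tested on simulated data.

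Genes named are the 25 largest rises and 25 largest falls among called genes, the 15 smallest p-values, up to 8 called members of each list (up to 2 with the highest level where none passed) and the 10 smallest interaction p-values. The members and the 86 lists were chosen with earlier results of these data known. Same-numbered pools did not pair: deviations of 45 pairs correlated at -0.40 to 0.46, 17 of them over 0.1. Alternatives changed the normalization, the centring, the filter, the probe set rule, the trend, the weights, the design and each array in turn.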

Additional observations from a re-analysis of the deposited data

How the results depend on the processing

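The count of 575 called genes lay between 371 (without knockout canola pool 2) and 698 when 1 array was left out, that of higher genes between 320 and 578, and that of lower genes between 51 and 136, with 58 without knockout canola pool 1 and 51 without pool 2. Against 95 with the reported settings, the genes lower in the knockout numbered 163 after repeated quantile normalization and 143 after centring. With array weights they numbered 172, where the total also rose, to 846. The cause was not tested. The test of diet dependence called 0 to 1 genes without 1 array, 1 of them without control fish/fungal pool 1 or pool 2. With the replicate number as a block 538 genes passed, 505 of them shared; the pools share only a number. Of 259 named called genes, 172 kept the call without any 1 array, 151 kept it in every setting, and 1 turned: Laptm5, at -0.073 without probe sets prone to cross-hybridization. Repeated normalization moved the median of all genes by -0.02. Signals below the array medians, in 42 called genes, limit the size of a change, and pools of 3 mice hide the spread between mice.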

Other observations

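A few further groups held called genes. Of 43 acute phase genes 6 were called higher (13.95%, against 3.82% over all genes) and none lower, while the median of the list was 0.03. Among the 6 was Lcn2, lipocalin 2, at 1.97 ± 0.27 (SE, 3.91-fold, adjusted p = 0.00045). Of 60 genes of the cell cycle and DNA replication 6 were called higher (10%, against 3.82% over all genes) and none lower. The median of that list was 0.07, with 0.18 on lard, 0.02 on canola and 0.04 on fish/fungal oil. Its count ran from 4 to 8 when 1 array was left out, and was 4 after repeated quantile normalization. Of the 6, Ccng2 lost its call without any of 13 arrays and Orc6 without any of 14. Of 25 markers of pericentral hepatocytes, the zone that holds most P450s, 7 were called higher (28%, against 3.82% over all genes). They were Rhbg, Oat, Aldh1a1 and the P450 genes Cyp2c37, Cyp1a2, Cyp2c29 and Cyp2c50, which also count in the P450 list. Glul, Cyp2e1, Axin2, Lgr5 and Tbx3, also listed for that zone, were not among those called. Of 23 periportal markers limma called 0, with 4 at an unadjusted p under 0.05.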
